A study of Mus musculus with 12 samples.

Results

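Regulatory T cells (Tregs) with the M354 form of Foxp3 were compared with Tregs with wild-type (WT) Foxp3, both from mouse spleen. The comparison rests on the 4 arrays whose titles name M354 Tregs (2 arrays) and WT Tregs (2 arrays), of 12 arrays in the series, and on all 16426 genes for which at least 1 of the 20716 probe sets named that gene and no other. Where several probe sets named a gene, the one with the highest mean over the 12 arrays stood for it. M354 Tregs came from mice labelled Foxp3(M354/M354) and WT Tregs from mice labelled Foxp3(WT/WT). Both groups were spleen cells of C57Bl/6 mice labelled male and aged 6 weeks, with the phenotype CD4+TCRb+CD25+, and were sorted and sorted again as DAPI-negative CD4+ cells with high CD25. The other arrays, 2 each, were M176 Tregs, from mice labelled Foxp3(M176/M176), and WT conventional CD4+ T cells into which a retrovirus had brought M354, M176 or WT Foxp3, sorted as Thy1.1-high. The series' design text calls the mice treated without naming a treatment. The change that M354 stands for is not given in the sources used here, nor is it stated whether the arrays of a group come from separate mice, so that the p-values measure only how far these samples scatter, and that scatter may be technical. Foxp3 lies on the X chromosome, and a genotype written with a pair of alleles is unusual beside a male label.

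Foxp3 is a forkhead transcription factor that Tregs need for their development and for restraining immune responses. It binds DNA together with other factors and both activates and represses genes, among them genes that conventional T cells switch on when activated. Resting Tregs circulate through lymphoid organs and express genes such as Satb1 and Il7r, whereas effector Tregs carry activation markers, chemokine receptors for tissues and suppressive mediators.

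The values are microarray intensities. A change is the difference of mean log2 intensities, M354 minus WT Tregs, with its standard error (SE), and a gene is called when limma's p, adjusted by the Benjamini-Hochberg method over the 8918 genes tested, is under 0.05. Tested genes were those brighter than the array's median on 2 or more of the 12 arrays. In whole-population samples such as these, fewer cells of a type and less RNA per cell cannot be told apart.

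The labelled cell type was checked against its markers. Cd3e and Cd3g (parts of the T cell receptor complex), Cd4, Foxp3 and the interleukin-2 receptor chain Il2ra lay between 3024 and 9013 on all 4 arrays. The 12 T cell identity genes tested had 0 calls and a median log2 change of -0.04. Defining markers of myeloid cells, neutrophils, dendritic cells and NK cells (Csf1r, Cd14, Itgam, S100a8, S100a9, Itgax, Flt3, Siglech and Ncr1) lay between 27.9 and 92.1 on all 4 arrays and did not pass the filter. B cell genes stood apart in WT replicate 2. Ms4a1, which encodes CD20, was measured at 44.8 and 36.2 in M354 Tregs, against 38.0 and 213 in WT Tregs. Cd79a was at 145 and 101 in M354 against 93.8 and 399 in WT Tregs, and the class II gene H2-Aa at 74.3 and 121 in M354 against 68.2 and 557 in WT Tregs. The 16 B cell markers on the arrays summed to 2837 and 2833 in M354 Tregs, against 2664 and 5297 in WT Tregs, so that only WT replicate 2 was high. Of the 14 tested, 1 was called, Cd72, and the median log2 change was -0.41. Their part in the falls described below was not tested, and the calls without WT replicate 2 are given beside each result that they end.

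Several families of near-identical gene copies also separated the arrays, a pattern picked out after its values were seen. Over 21 probe sets that name Ssty1, a spermatid gene family of the Y chromosome, the median intensity was 202.6 and 271.6 in M354 Tregs, against 20.3 and 45.6 in WT Tregs. The 4 probe sets of the small nucleolar RNA cluster Snord116 had medians of 243.6 and 280.0 in M354 Tregs, against 20.7 and 51.3 in WT Tregs. M176 Tregs lay at 156.9 and 370.6 on Snord116, above both WT arrays. On the transduced arrays it was at 71.4 and 162.1 with M354, 84.2 and 17.5 with WT and 40.7 and 105.8 with M176 Foxp3. The Snord116 level thus also varied between arrays of the same group. Single-copy Y genes did not share the separation of M354 from WT Tregs. Eif2s3y was at 539.6 and 558.7 in M354 Tregs, against 501.8 and 673.5 in WT Tregs. Among probe sets that name several genes, 82 were called higher and 5 lower of 771 tested, and among those that name no gene 37 were called higher and 8 lower of 897. Their part in the changes of single genes was not tested directly, but the fit was repeated with the Snord116 level of each array as a covariate, an alternative chosen after the values were seen. That level itself differs between M354 and WT Tregs. The covariate therefore overlaps with the comparison, and a call lost in that fit does not tell them apart.

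**Figure D1:**
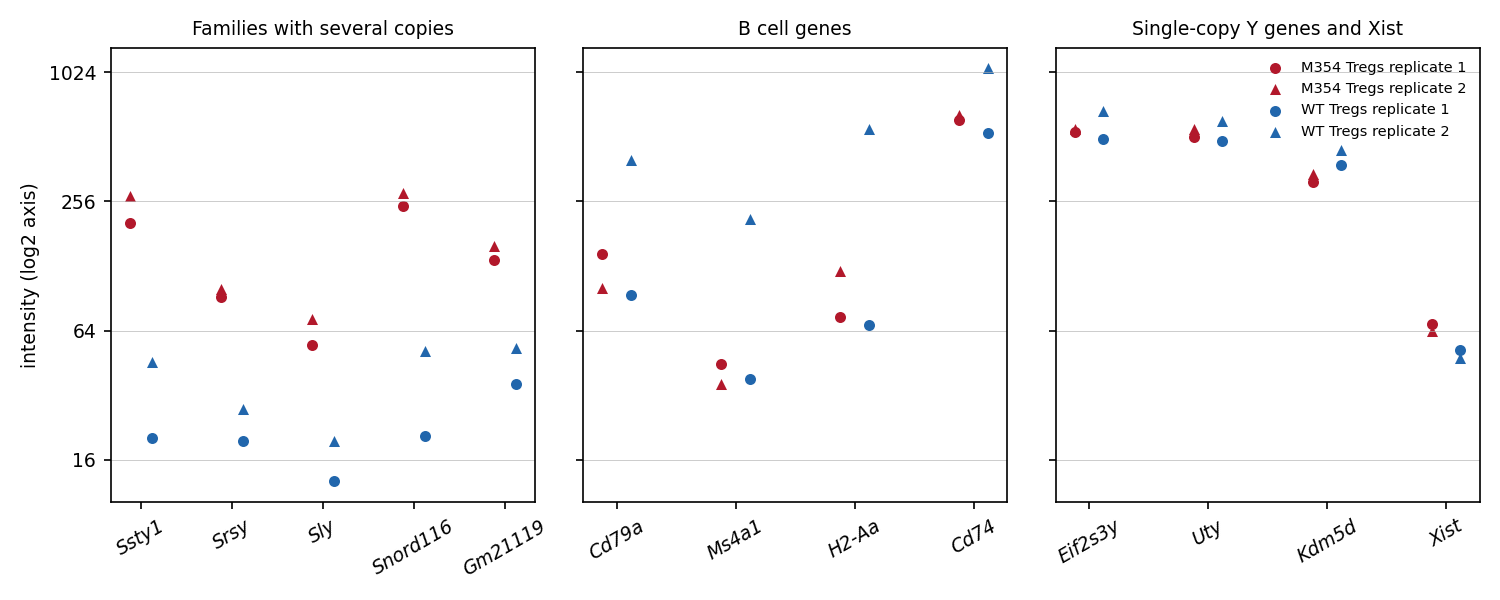
Intensity (log2 axis) on each M354 and WT Treg array of multi-copy families (median over their probe sets), B cell genes, and single-copy Y genes with Xist. Both M354 arrays lie above both WT arrays for each family shown, WT replicate 2 is highest for the 4 B cell genes, and the groups overlap for Eif2s3y and Uty.

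The transduced arrays go against one of their labels. All 12 samples are labelled male, but on the 6 transduced arrays Xist, the RNA that coats the inactive X chromosome of females, lay between 4015 and 5367 and Eif2s3y between 11.8 and 15.0. On the 6 Treg arrays Xist lay between 47.6 and 68.5 and Eif2s3y between 428.4 and 673.5. M354 and WT arrays of the same system therefore match each other in this respect. The transduced arrays enter the Treg comparison through the estimate of each gene's spread, the filter on dim genes and the choice of probe set. With the 6 Treg arrays alone, 191 genes were called, 94 higher and 97 lower.

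Foxp3 itself was measured at 5991 and 5485 in M354 Tregs, against 5913 and 5327 in WT Tregs. The groups overlapped, and the change was within the spread of the arrays (log2 change 0.03, SE 0.13, adjusted p = 0.972).

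Between M354 and WT Tregs 161 of the 8918 genes were called, or 1.81% of those tested. In M354 Tregs 79 genes rose (0.886% of those tested) and 82 fell (0.919%). The median log2 change over all tested genes was -0.04. All 161 called genes had both M354 arrays on one side of both WT arrays, a state that 13.1% of all tested genes reached with M354 higher and 24.6% with M354 lower. A change of at least 1 on the log2 scale was reached by 20 of the rises and 15 of the falls. The number of calls depended on single arrays. It was 73 without M354 replicate 1 (44 higher, 29 lower), 95 without M354 replicate 2 (38 higher, 57 lower), 95 without WT replicate 1 (40 higher, 55 lower) and 112 without WT replicate 2 (72 higher, 40 lower). Of the 161 genes, 44 were called whichever array was left out, 24 of them higher and 20 lower. The Snord116 level was itself higher in M354 than in WT Tregs, so a call lost with it does not show what the change follows. Without and with this covariate, the log2 change was -0.853 and -0.848 for Cnr2, and 1.41 and 0.722 for Naip5. Neither gene kept its call. With the Snord116 level as a covariate 53 genes were called, 13 higher and 40 lower. Of these, 40 were among the 161 (13 higher, 27 lower), and 0 of the 161 changed sign. Cxcr6, Cxcl10, Penk, Ahr, Id2, Gpm6b, Tnfsf8, Casp4 and Bhlhe40 among the rises and Gpr83, Slc2a3, Slc35d1, Mid1, Cd7, H2-Ob, Satb1 and Il7r among the falls were called in that fit too. Of the 72 called genes chosen for naming by the rule given under the processing, 30 kept their call there. The calls of 11 others, firm to the loss of any array, were lost in it: Cysltr1, Igfbp7, Itgb1, Mir680-1, Naip5, Nkg7, Plscr1, Srsy and Tnfsf13b among the rises and Cnr2 and Pde2a among the falls.

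**Figure D2:**
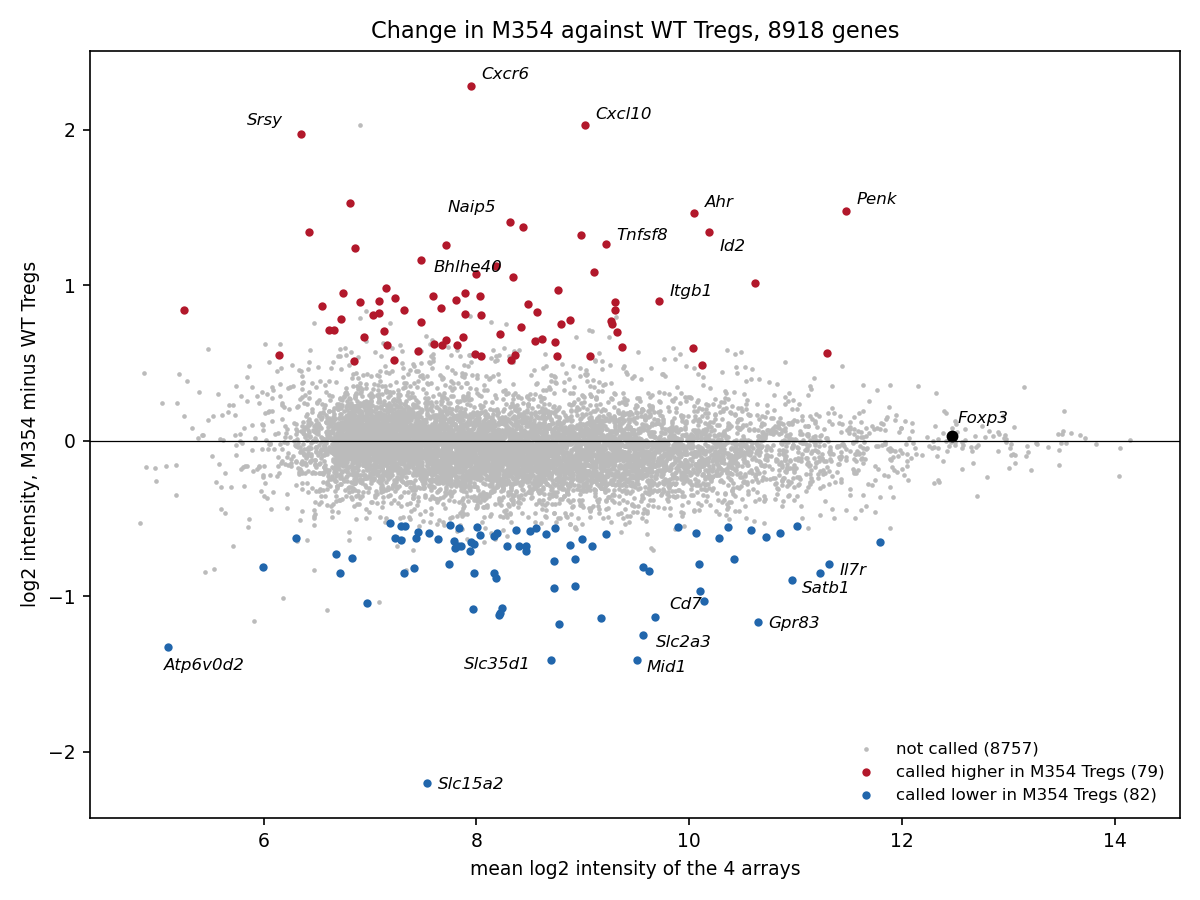
Each point is 1 of the 8918 tested genes, with its mean log2 intensity over the 4 arrays on the horizontal axis and its log2 change, M354 minus WT Tregs, on the vertical axis. Red points are the 79 genes called higher and blue points the 82 called lower, and Foxp3 (black) lies at a change of 0.03.

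The rises of Cxcr6 and Cxcl10 were the widest of the called genes. Cxcr6, the receptor for the membrane-bound chemokine Cxcl16, had intensities of 458 and 649.8 in M354 Tregs, against 94.9 and 132 in WT Tregs. Its level was thus 4.87-fold higher in M354 Tregs, the largest rise of the called genes (log2 change 2.28, SE 0.19, adjusted p = 6.41e-06). Cxcl10, an interferon-inducible ligand of the receptor Cxcr3, was at 1180.2 and 928 in M354 Tregs, against 245 and 268 in WT Tregs, 4.08-fold higher (log2 change 2.03, SE 0.15, adjusted p = 2.23e-06). Both genes stayed called whichever array was left out. Chemokine receptors as a list did not move one way: of 15 tested, 1 rose and 2 fell, with a median log2 change of -0.05. The falls were in receptors that direct cells to B cell follicles and to the gut. Cxcr5, the follicle-homing receptor, which B cells carry as well, was at 112 and 147 in M354 Tregs, against 245 and 209.8 in WT Tregs (log2 change -0.82, SE 0.16, adjusted p = 0.00889), a call lost without M354 replicate 1 or WT replicate 1 (adjusted p = 0.157 and 0.104). Ccr9, the receptor for the gut chemokine Ccl25 and here also on the list of dendritic cell markers, was at 134 and 118 in M354 Tregs, against 181 and 212 in WT Tregs (log2 change -0.64, SE 0.15, adjusted p = 0.0338). That call did not survive leaving out any array, being lost without M354 replicate 1, M354 replicate 2, WT replicate 1 or WT replicate 2 (adjusted p = 0.0956, 0.187, 0.0547 and 0.281). Ccr8, at 736 and 848 in M354 against 624 and 543 in WT, Ccr6, at 303 and 389.6 in M354 against 418 and 526 in WT, and Ccr4, at 1676 and 1487 in M354 against 2095 and 2001 in WT Tregs, did not pass (adjusted p = 0.182, 0.176 and 0.207). Cxcl10 was also the 1 call among 27 tested genes of the interferon response, whose median change was -0.03. Oas2 (138 and 140.2 in M354 against 219 and 178 in WT, adjusted p = 0.0938) and Gbp3 (456 and 463 in M354 against 606 and 655 in WT, adjusted p = 0.108) had lower values in M354 than in WT Tregs without passing.

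The promoter windows of a pair of rising and a pair of falling genes are shown because these genes kept their calls in every alternative fit; they run from 250 bases before to 50 bases after the gene's start, on the gene's strand, and come from RefSeq (GRCm38.p6). Capitals mark matches, on either strand, to the forkhead core TAAACA, the AP-1 motif TGANTCA, the Ahr core GCGTG or the E-box CACGTG to which Bhlhe40 binds.
Cxcr6, chr9:123806227-123806526, plus strand: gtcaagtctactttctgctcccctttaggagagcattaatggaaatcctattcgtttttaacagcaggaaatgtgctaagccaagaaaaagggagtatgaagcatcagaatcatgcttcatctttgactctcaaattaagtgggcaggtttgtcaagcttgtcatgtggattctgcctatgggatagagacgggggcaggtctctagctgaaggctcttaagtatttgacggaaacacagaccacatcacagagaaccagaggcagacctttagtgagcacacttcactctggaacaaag
Cxcl10, chr5:92348840-92349139, minus strand: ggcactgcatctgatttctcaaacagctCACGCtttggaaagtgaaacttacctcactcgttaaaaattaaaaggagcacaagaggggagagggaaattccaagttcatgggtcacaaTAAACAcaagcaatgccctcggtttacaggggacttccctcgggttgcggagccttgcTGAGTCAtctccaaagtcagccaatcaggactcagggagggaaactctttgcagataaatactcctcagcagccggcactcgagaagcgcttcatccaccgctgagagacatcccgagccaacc
Gpr83, chr9:14859960-14860259, plus strand: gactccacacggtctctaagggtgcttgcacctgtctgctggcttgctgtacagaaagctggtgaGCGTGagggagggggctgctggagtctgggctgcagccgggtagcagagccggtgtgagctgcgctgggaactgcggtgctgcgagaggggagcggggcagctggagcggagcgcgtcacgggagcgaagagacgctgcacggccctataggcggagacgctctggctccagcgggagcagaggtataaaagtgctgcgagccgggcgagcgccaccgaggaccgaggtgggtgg
Il7r, chr15:9529827-9530126, minus strand: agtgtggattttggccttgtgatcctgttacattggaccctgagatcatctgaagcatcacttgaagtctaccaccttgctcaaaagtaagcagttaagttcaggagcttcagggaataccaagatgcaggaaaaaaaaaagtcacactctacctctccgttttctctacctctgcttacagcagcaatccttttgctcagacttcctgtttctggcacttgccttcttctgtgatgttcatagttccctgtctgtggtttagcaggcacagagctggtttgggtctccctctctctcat
The Cxcl10 window held 1 forkhead core, 1 AP-1 motif and 1 Ahr core, the Gpr83 window 1 Ahr core, and the windows of Cxcr6 and Il7r none of the 4 motifs. Over the called genes with a window, the forkhead core was present in 5.08% of 59 genes that rose and 14.5% of 62 that fell, beside 8.10% of 7095 tested genes and 13.3% of all 27025 promoters. The AP-1 motif was present in 5.08% of rising and 4.84% of falling genes, and in 4.48% of tested genes and 7.92% of all promoters. The Ahr core was present in 33.9% of rising and 43.5% of falling genes, and in 52.2% of tested genes and 32.5% of all promoters. The E-box was present in 8.47% of rising and 8.06% of falling genes, and in 10.3% of tested genes and 7.24% of all promoters. These letter matches are a description of the windows and were not tested.

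Among transcription factors, 3 of the 25 tested helper lineage factors rose, beside 0.886% of all tested genes, and 0 fell, with a median of 0.02. Ahr, the receptor for environmental and dietary aryl hydrocarbons, was at 1783 and 1732 in M354 Tregs, against 589.8 and 689.5 in WT Tregs (log2 change 1.46, SE 0.15, adjusted p = 3.16e-05). Id2, which blocks the DNA binding of E proteins, was at 1661 and 2071 in M354 Tregs, against 716 and 747 in WT Tregs (log2 change 1.34, SE 0.15, adjusted p = 7.20e-05). Bhlhe40, a helix-loop-helix repressor of T cell cytokine programmes and the clock, was at 405 and 539.98 in M354 Tregs, against 229.5 and 221 in WT Tregs (log2 change 1.06, SE 0.14, adjusted p = 0.000400). In each of the 3 genes the groups were far apart, and each call held with any array left out. Known targets of Ahr were largely dim: Cyp1a1, Cyp1a2, Cyp1b1, Ahrr and Nqo1 did not pass the filter, and of the 2 tested targets 0 were called. Among factors of resting T cells, Satb1, a chromatin organiser, fell, with 1320.3 and 1622 in M354 Tregs, against 2631 and 2826 in WT Tregs (log2 change -0.90, SE 0.14, adjusted p = 0.00118). Klf3, a Krüppel-like repressor, was at 1107 and 1069 in M354 Tregs, against 1565 and 1629.9 in WT Tregs (log2 change -0.55, SE 0.12, adjusted p = 0.0217), and this call was lost without M354 replicate 1, M354 replicate 2, WT replicate 1 or WT replicate 2 (adjusted p = 0.100, 0.101, 0.102 and 0.155). Epas1, which encodes the hypoxia factor HIF-2 alpha, was at 167 and 196 in M354 Tregs, against 125 and 84.1 in WT Tregs (log2 change 0.82, SE 0.18, adjusted p = 0.0211). Its call was lost without M354 replicate 1, M354 replicate 2 or WT replicate 2 (adjusted p = 0.0796, 0.153 and 0.286), and it was the only 1 of 15 hypoxia genes to be called. Of 21 tested partners of Foxp3, Satb1 was called and the other members were not.

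**Figure D3:**
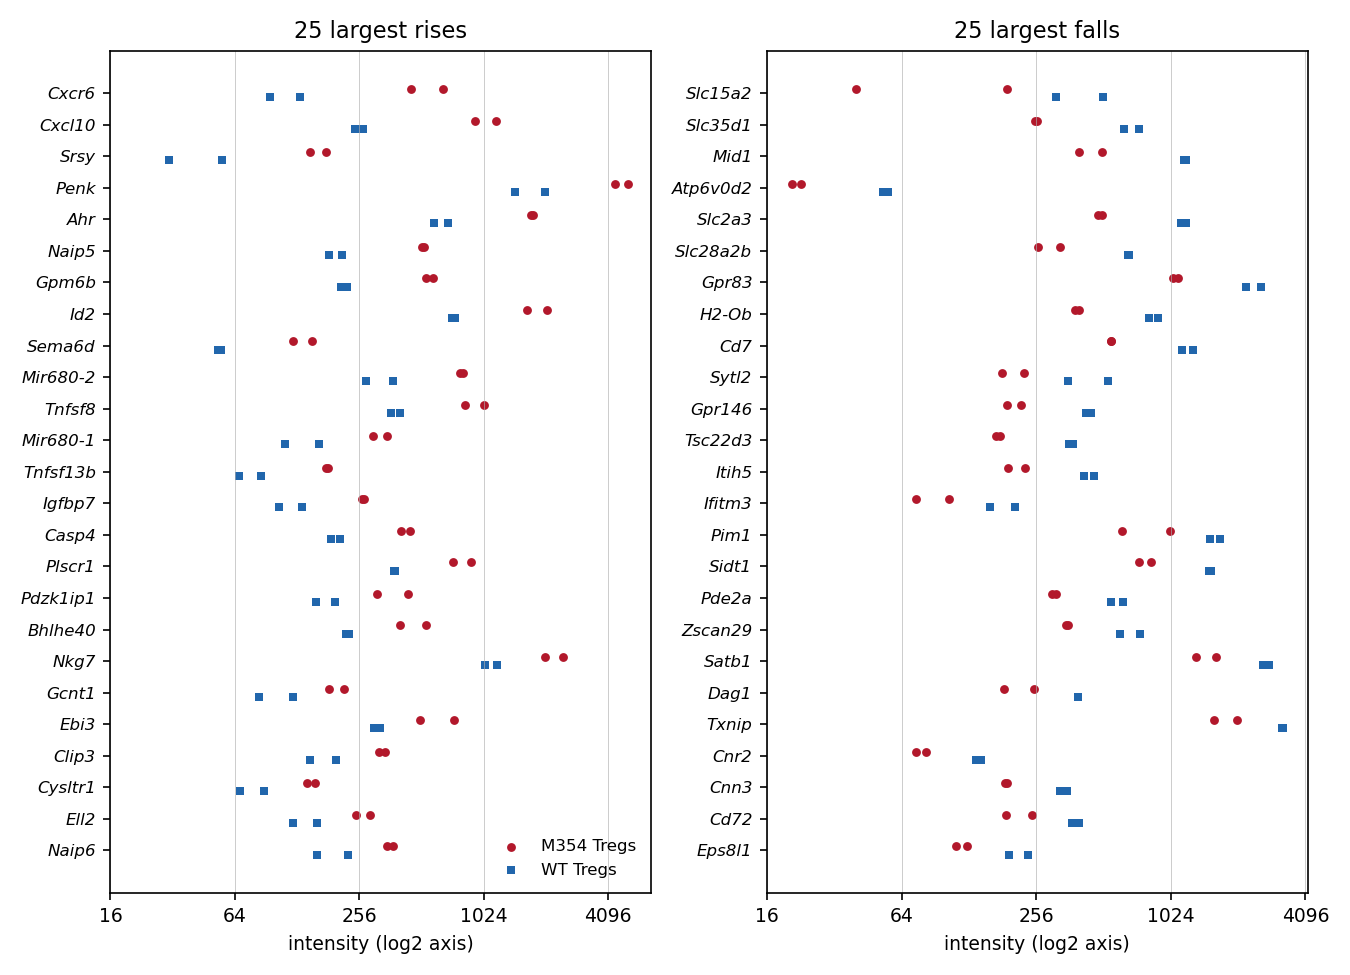
Intensity (log2 axis) of each array for called genes, the 25 that rose most and the 25 that fell most, with M354 Tregs as circles drawn above WT Tregs as squares. The groups do not overlap in any row, as for Cxcr6 at 458.1 and 649.8 in M354 Tregs and 94.9 and 132.3 in WT Tregs, and the widest spread within a group is that of Slc15a2 in M354 Tregs.

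Ligands of the tumour necrosis factor (TNF) superfamily are membrane proteins that signal to neighbouring cells. Of 10 tested, 4 rose in M354 Tregs, 0 fell and 6 were not called. Both M354 arrays lay above both WT arrays for 8 of them, beside 13.1% of all tested genes, and below for 1, Tnfsf9. The median log2 change was 0.49 beside -0.04 over all tested genes. Between 2 and 4 rose with an array left out, the lowest count being without M354 replicate 2 or WT replicate 2, and 1 rose, Tnfsf8, with the Snord116 level as a covariate. Tnfsf8, the ligand of CD30, was at 829 and 1025 in M354 Tregs, against 365 and 402 in WT Tregs (log2 change 1.27, SE 0.15, adjusted p = 7.84e-05). Tnfsf13b, the B cell survival factor BAFF, was at 176.1 and 181 in M354 Tregs, against 85.6 and 67.0 in WT Tregs (log2 change 1.24, SE 0.16, adjusted p = 0.000296). Both calls held without any single array. Tnfsf14, known as LIGHT, was at 127 and 152 in M354 Tregs, against 86.1 and 75.3 in WT Tregs (log2 change 0.78, SE 0.16, adjusted p = 0.0142), with the call lost without M354 replicate 2 or WT replicate 2. Outside M354 Tregs it lay between 62.3 and 103, and without the M354 Treg arrays it would not have passed the filter. Tnfsf11, known as RANKL, was at 672 and 624 in M354 Tregs, against 447 and 439.9 in WT Tregs (log2 change 0.55, SE 0.13, adjusted p = 0.0385), with the call lost without M354 replicate 1, M354 replicate 2, WT replicate 1 or WT replicate 2 (adjusted p = 0.221, 0.0850, 0.146 and 0.186). Values of Cd40lg (412 and 362 in M354 against 245 and 302 in WT), Tnf (813 and 1087 in M354 against 680.2 and 678 in WT) and Lta (505 and 566 in M354 against 424 and 367 in WT) were higher in M354 than in WT Tregs on both arrays without passing (adjusted p = 0.107, 0.115 and 0.162). Ltb, which encodes lymphotoxin beta, was at 949.8 and 1451 in M354 Tregs, against 1709 and 1388 in WT Tregs, so that the arrays overlapped (log2 -0.39, adjusted p = 0.397). Of 19 tested receptors of the family 0 rose and 0 fell, with a median of -0.14. The lowest p among them was that of Tnfrsf1a, a receptor for TNF, at 252 and 299.6 in M354 Tregs, against 423 and 391 in WT Tregs (log2 -0.57, adjusted p = 0.0540).

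Among cytokine receptors, 1 of 24 tested rose and 2 fell, and the median was -0.19. Over all tested genes 0.886% rose and 0.919% fell, with a median of -0.04. Il7r, the interleukin-7 receptor chain that supports resting T cells, was at 2022 and 1861 in M354 Tregs, against 3188 and 3548 in WT Tregs (log2 change -0.79, SE 0.13, adjusted p = 0.00268), and its call held with any array left out. Il6ra, the interleukin-6 receptor, was at 1257 and 1482 in M354 Tregs, against 2177 and 2026 in WT Tregs (log2 change -0.62, SE 0.14, adjusted p = 0.0233), a call lost without M354 replicate 1, WT replicate 1 or WT replicate 2 (adjusted p = 0.221, 0.154 and 0.0715). Tgfbr3, a co-receptor for transforming growth factor beta, was at 276 and 285 in M354 Tregs, against 177 and 188 in WT Tregs (log2 change 0.62, SE 0.13, adjusted p = 0.0137), and was the 1 call among 19 genes of that pathway; it was lost without M354 replicate 1, M354 replicate 2, WT replicate 1 or WT replicate 2 (adjusted p = 0.0794, 0.0760, 0.119 and 0.0532). Il6st, the shared signalling chain of the interleukin-6 family, Il4ra and Ifnar1 had both M354 arrays below both WT arrays and did not pass (adjusted p = 0.0701, 0.141 and 0.0959). Such a state was common. Both M354 arrays lay below both WT arrays for 13 of the 24 receptors and above for 3, beside 24.6% and 13.1% of all tested genes. Of 17 tested genes of the interleukin-2 and STAT5 axis, 1 fell, the serine/threonine kinase Pim1, at 618 and 1010.5 in M354 Tregs, against 1698 and 1534 in WT Tregs (log2 change -1.03, SE 0.18, adjusted p = 0.00393); the call was lost without M354 replicate 1 (adjusted p = 0.0796).

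The genes that mark Tregs as a lineage moved both ways. Of 31 tested genes that are high in Tregs, 3 rose and 1 fell, with a median of 0.01. Without M354 replicate 2 only 1 of them rose, and without WT replicate 2 it was 2 that rose and 2 that fell. Penk, the precursor of enkephalin opioid peptides, was at 4428 and 5122 in M354 Tregs, against 2017 and 1447 in WT Tregs (log2 change 1.48, SE 0.19, adjusted p = 0.000247). Ebi3, a subunit of interleukins 27 and 35, was at 506 and 736 in M354 Tregs, against 300.3 and 324 in WT Tregs (log2 change 0.97, SE 0.17, adjusted p = 0.00430), a call lost without M354 replicate 2 (adjusted p = 0.0755). Tigit, an inhibitory receptor that competes with Cd226, was at 2906 and 3220.1 in M354 Tregs, against 2305 and 1857 in WT Tregs (log2 change 0.56, SE 0.14, adjusted p = 0.0447), a call lost without M354 replicate 1, M354 replicate 2 or WT replicate 2 (adjusted p = 0.113, 0.195 and 0.426). Gpr83, a G protein-coupled receptor that marks Tregs, fell, with 1042 and 1097 in M354 Tregs, against 2588 and 2224 in WT Tregs (log2 change -1.17, SE 0.15, adjusted p = 0.000247), and held with any array left out. Ecm1 (1874 and 1789 in M354 against 3101 and 2350.4 in WT) was lower, and Nrp1 (1540.5 and 1713 in M354 against 1184 and 1221 in WT) and Nt5e (2629 and 2686 in M354 against 2066 and 1948 in WT) higher, in M354 than in WT Tregs without passing (adjusted p = 0.0566, 0.132 and 0.151). Of 13 tested genes that are low in Tregs, 2 rose and 2 fell. The rises were Tgfbr3 and Pde3b, a phosphodiesterase that Foxp3 is known to repress, which was dim at 79.6 and 91.6 in M354 Tregs, against 60.2 and 56.3 in WT Tregs (log2 change 0.55, SE 0.13, adjusted p = 0.0432) and lost its call without M354 replicate 1, M354 replicate 2, WT replicate 1 or WT replicate 2 (adjusted p = 0.0882, 0.207, 0.122 and 0.254). The list of suppressive mediators also holds Pde3b, which, as a gene low in Tregs that Foxp3 represses, is not itself such a mediator. On that list 3 of 15 tested genes rose, Penk, Ebi3 and Pde3b, beside 0.886% of all tested genes, and 0 fell, with a median of 0.29. Between 1 and 2 of these mediators rose with an array left out, the lowest count being without M354 replicate 2, and 1 with the Snord116 level as a covariate.

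Effector and resting Treg genes had median changes on opposite sides of 0. Of 26 tested effector genes 6 rose (Cxcr6, Ahr, Id2, Bhlhe40, Ebi3 and Tigit) and 0 fell; over all tested genes 0.886% rose. In 16 of the 26 both M354 arrays lay above both WT arrays and in 2 below, beside 13.1% and 24.6% of all tested genes, and the median log2 change was 0.29 beside -0.04. Of 11 resting genes 3 fell (Satb1, Il7r and Klf3) and 0 rose, where 0.919% of all tested genes fell. In 9 of the 11 both M354 arrays lay below both WT arrays, beside the same 24.6%, and the median was -0.46. With an array left out, between 4 and 6 effector genes rose and between 0 and 1 fell, and 2 resting genes fell each time; with the Snord116 level as a covariate, 4 effector genes rose and 2 resting genes fell. Among those that did not pass, Foxo1, a forkhead factor of resting cells, was at 1376 and 1406 in M354 Tregs, against 2054 and 1967 in WT Tregs, Bach2 at 1117 and 994 in M354 against 1439.5 and 1479 in WT, and S1pr1, the receptor for lymphoid exit, at 1812 and 1849.7 in M354 against 2370.1 and 2311 in WT (adjusted p = 0.0745, 0.173 and 0.202). Maf (1723 and 1791 in M354 against 1342 and 1332 in WT) and Lag3 (236 and 261 in M354 against 197 and 195 in WT) among the effector genes were higher in M354 than in WT Tregs, again without passing (adjusted p = 0.141 and 0.305). The lists were drawn up with results of these arrays known, so their direction is not independent evidence.

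**Figure D4:**
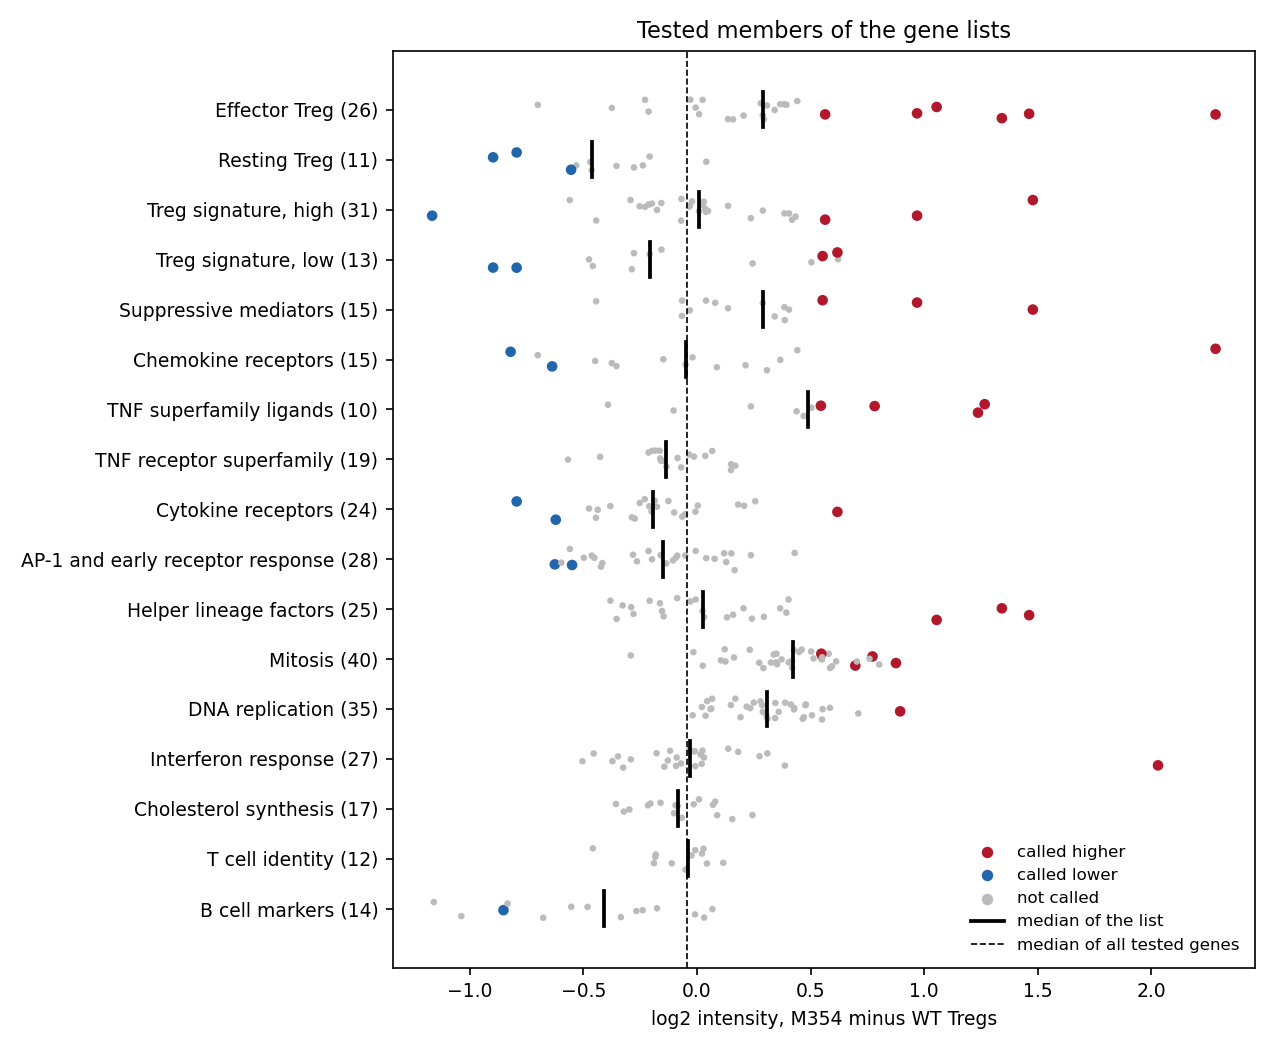
Log2 change, M354 minus WT Tregs, of each tested member (points, with the number of members in parentheses) of 17 gene lists, with the list's median as a bar and the median of all tested genes as a dashed line. Effector genes, TNF ligands, mitosis and DNA replication have medians of 0.29, 0.49, 0.42 and 0.31, and resting Treg genes and B cell markers of -0.46 and -0.41.

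Of 20 tested adhesion genes 1 rose and 1 fell, beside 0.886% and 0.919% of all tested genes, with a median log2 change of 0.03. Itgb1, the beta 1 integrin chain, was at 1031 and 1284 in M354 Tregs, against 593 and 640.2 in WT Tregs (log2 change 0.90, SE 0.15, adjusted p = 0.00233), a call that held with any array left out and was lost with the Snord116 level as a covariate (adjusted p = 0.106). Itga6, a partner of that chain, was at 983 and 1139 in M354 Tregs, against 1635 and 1956 in WT Tregs (log2 change -0.76, SE 0.14, adjusted p = 0.00765), a call lost without M354 replicate 1 or WT replicate 2 (adjusted p = 0.113 and 0.103). The genes that follow encode surface and membrane proteins on no common list and were taken singly, by the size of their change. Cd7, an immunoglobulin-family protein of T cells, was at 553 and 551 in M354 Tregs, against 1284 and 1144 in WT Tregs (log2 change -1.13, SE 0.13, adjusted p = 7.84e-05). H2-Ob, a chain of the class II peptide-loading modulator H2-O that B cells also make, was at 379.5 and 397 in M354 Tregs, against 817 and 899.9 in WT Tregs (log2 change -1.14, SE 0.13, adjusted p = 7.29e-05). Both WT arrays were high for Cd7 and for H2-Ob, and the calls held without WT replicate 2. Cd72, a co-receptor of B cells, was at 187 and 243 in M354 Tregs, against 399 and 371 in WT Tregs (log2 change -0.85, SE 0.15, adjusted p = 0.00529). Cd72 lost its call without M354 replicate 1 or WT replicate 1 (adjusted p = 0.113 and 0.0531), and it kept it without WT replicate 2, the array with high B cell genes. Cnr2, the cannabinoid receptor of immune cells, was dim at 74.2 and 82.4 in M354 Tregs, against 138 and 145 in WT Tregs (log2 change -0.85, SE 0.14, adjusted p = 0.00231). Sema6d, a transmembrane semaphorin, was at 123 and 152 in M354 Tregs, against 53.1 and 54.7 in WT Tregs (log2 change 1.34, SE 0.14, adjusted p = 3.27e-05). On every array but those of M354 Tregs it was dim, between 43.3 and 54.7 and under the array median. Sema6d thus passed the filter only through the arrays on which it was high. Gpm6b, a membrane proteolipid, was at 536 and 581 in M354 Tregs, against 209 and 223 in WT Tregs (log2 change 1.37, SE 0.14, adjusted p = 3.16e-05). Cysltr1, the receptor for cysteinyl leukotrienes, was at 156 and 143 in M354 Tregs, against 68.1 and 88.1 in WT Tregs (log2 change 0.95, SE 0.14, adjusted p = 0.00102), and Gpr146, an orphan receptor, at 219 and 189 in M354 Tregs, against 448 and 429 in WT Tregs (log2 change -1.11, SE 0.14, adjusted p = 0.000188). Dag1, which encodes dystroglycan, was at 184 and 249 in M354 Tregs, against 395 and 394 in WT Tregs (log2 change -0.88, SE 0.15, adjusted p = 0.00360), with the call lost without M354 replicate 1 (adjusted p = 0.0885). With the Snord116 level as a covariate Cd72, Cnr2, Cysltr1 and Dag1 were not called (adjusted p = 0.123, 0.0815, 0.0815 and 0.0731).

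The widest fall among called genes was that of the transporter gene Slc15a2. Of 20 tested genes on a list of nutrient and other transporters 3 fell and 0 rose, where 0.919% of all tested genes fell. That list was drawn up with results of these arrays known, so its count is not independent evidence. Slc15a2, a transporter of short peptides, was at 188 and 39.9 in M354 Tregs, against 509 and 312 in WT Tregs (log2 change -2.20, SE 0.43, adjusted p = 0.00951). Its M354 arrays lay far apart: the log2 change was -3.32 without M354 replicate 1 and -1.08 without M354 replicate 2, and the call was lost without WT replicate 1 (adjusted p = 0.0878). It was also lost with a trended and robust prior for the variance (adjusted p = 0.251) and with the Snord116 level as a covariate (adjusted p = 0.151). Slc35d1, which carries nucleotide sugars into the endoplasmic reticulum, was at 258 and 253 in M354 Tregs, against 632 and 733 in WT Tregs (log2 change -1.41, SE 0.18, adjusted p = 0.000183). Slc2a3, the neuronal-type glucose transporter Glut3, was at 481 and 503 in M354 Tregs, against 1141 and 1195 in WT Tregs (log2 change -1.25, SE 0.13, adjusted p = 3.16e-05). Slc2a3 was the 1 call among 17 genes of glucose uptake and glycolysis, whose median was 0.00. Outside the list, the nucleoside transporter Slc28a2b was at 261 and 326 in M354 Tregs, against 656 and 665 in WT Tregs (log2 change -1.18, SE 0.14, adjusted p = 0.000100). Atp6v0d2, a proton pump subunit, was below the array median on all 4 arrays, at 22.7 and 20.5 in M354 Tregs, against 52.8 and 55.7 in WT Tregs (log2 change -1.33, SE 0.15, adjusted p = 7.29e-05). Txnip, which restrains glucose uptake, was at 1588 and 2017 in M354 Tregs, against 3211 and 3253 in WT Tregs (log2 change -0.85, SE 0.14, adjusted p = 0.00299), with the call lost without M354 replicate 1 (adjusted p = 0.0757). Of 20 genes of fatty acid and lipid handling 2 fell, beside 0.919% of all tested genes. Elovl6, a fatty acid elongase, was at 266 and 230.3 in M354 Tregs, against 398 and 393 in WT Tregs (log2 change -0.68, SE 0.14, adjusted p = 0.0145), and Abca1, which exports cholesterol, at 206 and 219 in M354 Tregs, against 301 and 346 in WT Tregs (log2 change -0.60, SE 0.14, adjusted p = 0.0299). The call of Elovl6 was lost without M354 replicate 2, WT replicate 1 or WT replicate 2 (adjusted p = 0.125, 0.0925 and 0.0739), and that of Abca1 without M354 replicate 1, M354 replicate 2, WT replicate 1 or WT replicate 2 (adjusted p = 0.187, 0.0866, 0.0560 and 0.263).

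Of 28 tested genes of the early response to the T cell receptor 0 rose and 2 fell, beside 0.886% and 0.919% of all tested genes. Both M354 arrays lay below both WT arrays for 13 of the 28 and above for 3, beside 24.6% and 13.1% of all tested genes. The median log2 change of the list was -0.15. Jun, a subunit of the factor AP-1, was at 918 and 1093 in M354 Tregs, against 1599.8 and 1494 in WT Tregs (log2 change -0.63, SE 0.13, adjusted p = 0.0204), with the call lost without M354 replicate 1, WT replicate 1 or WT replicate 2 (adjusted p = 0.205, 0.146 and 0.0664). Fos, its usual partner, was at 131 and 129 in M354 Tregs, against 196 and 184 in WT Tregs (log2 change -0.55, SE 0.13, adjusted p = 0.0429), with the call lost without M354 replicate 1, M354 replicate 2, WT replicate 1 or WT replicate 2 (adjusted p = 0.164, 0.141, 0.213 and 0.123). Dusp1, Dusp2 and Dusp5, phosphatases that switch off MAP kinases, had adjusted p of 0.0853, 0.101 and 0.111 at log2 changes of -0.50, -0.56 and -0.60. The 25 tested genes of receptor signalling had 0 calls and a median of -0.05. Mid1, a ubiquitin ligase of microtubules, was at 502 and 397 in M354 Tregs, against 1198 and 1172 in WT Tregs (log2 change -1.41, SE 0.14, adjusted p = 3.27e-05). Tsc22d3, the glucocorticoid-induced leucine zipper, was at 176.5 and 169 in M354 Tregs, against 372 and 358 in WT Tregs (log2 change -1.08, SE 0.13, adjusted p = 8.52e-05). Pde2a, a phosphodiesterase of cyclic nucleotides, was at 300.3 and 313 in M354 Tregs, against 627 and 555 in WT Tregs (log2 change -0.94, SE 0.13, adjusted p = 0.000406). Each of these last 3 falls held with any array left out, and that of Pde2a was lost with the Snord116 level as a covariate (adjusted p = 0.0815). Sidt1 (738 and 836 in M354 against 1512 and 1552 in WT), Itih5 (192 and 227 in M354 against 461 and 419 in WT), Cnn3 (186 and 189 in M354 against 326 and 351 in WT) and Zscan29 (354.5 and 349 in M354 against 605 and 745 in WT) were further falls that held likewise (adjusted p = 0.000247, 0.000247, 0.00257 and 0.00118). Sytl2, a partner of vesicle Rab proteins, Ifitm3, an antiviral membrane protein, and Eps8l1 fell by 1.12, 1.04 and 0.85 on the log2 scale. Their calls were less firm: Sytl2 lost it without M354 replicate 1 (adjusted p = 0.0603), Ifitm3 without M354 replicate 1 or WT replicate 2 (adjusted p = 0.163 and 0.0935) and Eps8l1 without M354 replicate 1 or WT replicate 1 (adjusted p = 0.0717 and 0.0624).

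The other larger rises were taken singly, by the size of their change. Casp4, the caspase that senses bacterial lipopolysaccharide in the cytosol, was at 408 and 449 in M354 Tregs, against 188 and 206 in WT Tregs (log2 change 1.12, SE 0.13, adjusted p = 7.84e-05). Naip5, a sensor of flagellin, was at 525 and 513 in M354 Tregs, against 182 and 210.2 in WT Tregs (log2 change 1.41, SE 0.18, adjusted p = 0.000247), and Naip6 at 375 and 350.2 in M354 Tregs, against 160.2 and 226 in WT Tregs (log2 change 0.93, SE 0.16, adjusted p = 0.00432). These are near-identical copies, so their signals may not be separate, and the call of Naip6 was lost without M354 replicate 1 or WT replicate 1 (adjusted p = 0.0757 and 0.0875). Nkg7, a protein of cytotoxic granules, was at 2466 and 2031 in M354 Tregs, against 1184 and 1039 in WT Tregs (log2 change 1.01, SE 0.16, adjusted p = 0.00174). It was the 1 call among 8 tested CD8 T and NK cell markers, whose median log2 change was -0.06. Cd8b1 was at 455.3 and 467.3 in M354 Tregs, against 510.7 and 481.7 in WT Tregs, Cd8a lay between 82.1 and 106.4 on all 4 arrays, and Ncr1 between 27.9 and 36.7. Plscr1, a phospholipid scramblase, was at 724 and 893 in M354 Tregs, against 378 and 381 in WT Tregs (log2 change 1.08, SE 0.15, adjusted p = 0.000426). Igfbp7, a secreted binding protein of insulin-like growth factors, was at 264 and 269 in M354 Tregs, against 135 and 105 in WT Tregs (log2 change 1.16, SE 0.15, adjusted p = 0.000247). Gcnt1, which branches O-glycans on surface proteins, was at 184 and 216 in M354 Tregs, against 83.9 and 122 in WT Tregs (log2 change 0.98, SE 0.16, adjusted p = 0.00257), with the call lost without M354 replicate 2 or WT replicate 1 (adjusted p = 0.0526 and 0.0519). Pdzk1ip1, Clip3 and the elongation factor Ell2 rose by 1.07, 0.95 and 0.93. Pdzk1ip1 lost its call without M354 replicate 2 or WT replicate 2 (adjusted p = 0.113 and 0.0692), Clip3 without M354 replicate 1 or WT replicate 2 (adjusted p = 0.0516 and 0.0520) and Ell2 without M354 replicate 1 or WT replicate 1 (adjusted p = 0.0918 and 0.0780). With the Snord116 level as a covariate Casp4 and Pdzk1ip1 were called, and Naip5, Naip6, Nkg7, Plscr1, Igfbp7, Gcnt1, Clip3 and Ell2 were not (adjusted p = 0.0993, 0.126, 0.0731, 0.0914, 0.0614, 0.171, 0.0840 and 0.241).

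Srsy and a pair of microRNA genes rose as members of multi-copy sequence. Srsy, a Y-linked family with 11 probe sets of its own, was at 149 and 177 in M354 Tregs, against 30.9 and 55.2 in WT Tregs on the brightest (log2 change 1.97, SE 0.29, adjusted p = 0.00102), and the median over its 11 probe sets was 91.8 and 100.4 in M354 Tregs, against 19.5 and 27.7 in WT Tregs. Mir680-1 was at 299.5 and 349.98 in M354 Tregs, against 112 and 163 in WT Tregs (log2 change 1.26, SE 0.20, adjusted p = 0.00174). Mir680-2 was at 815 and 789 in M354 Tregs, against 276 and 372 in WT Tregs (log2 change 1.32, SE 0.24, adjusted p = 0.00526), with the call lost without M354 replicate 1, M354 replicate 2 or WT replicate 1 (adjusted p = 0.0863, 0.0545 and 0.0624). RefSeq (GRCm38.p6) gives 1 mature sequence at 3 loci, which is shown because it makes the loci hard to tell apart; the seed, bases 2 to 8, is in capitals.
mmu-miR-680: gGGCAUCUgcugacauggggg
The arrays measure RNA from these loci, not the mature microRNA. None of the 3 genes was called with the Snord116 level as a covariate, and Srsy was not called with a trended and robust prior (adjusted p = 0.0592).

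Few cell cycle genes were called. Of 40 tested mitosis genes 4 rose and 0 fell, 38 had a log2 change above 0, and the median was 0.42. Both M354 arrays lay above both WT arrays for 22 of them and below for 1, and the arrays overlapped for 17. Of 35 tested DNA replication genes 1 rose and 0 fell, 34 lay above 0, and the median was 0.31, with both M354 arrays above both WT arrays for 20 and overlap for 15. Over all tested genes 13.1% had both M354 arrays above both WT arrays. Summed intensities of the 40 mitosis genes were 12299 and 14549 in M354 Tregs, against 9304 and 11822 in WT Tregs, so that WT replicate 2 came close to M354 replicate 1. The number of mitosis genes that rose was 1 without M354 replicate 1, 0 without M354 replicate 2, 0 without WT replicate 1 and 12 without WT replicate 2. Of the replication genes, 3 rose without M354 replicate 1, 0 without M354 replicate 2, 0 without WT replicate 1 and 4 without WT replicate 2. With the Snord116 level as a covariate 0 genes of either list rose, and the medians were 0.12 and 0.14. Cks2, a subunit of cyclin-dependent kinases, was at 799 and 815 in M354 Tregs, against 440.02 and 506 in WT Tregs (log2 change 0.77, SE 0.15, adjusted p = 0.0107), and its second probe set, at 438.8 and 435.4 in M354 Tregs and 252.5 and 286.1 in WT Tregs, had values apart in the same direction. Cks1b, its relative, was at 405 and 585 in M354 Tregs, against 221 and 318 in WT Tregs (log2 change 0.88, SE 0.18, adjusted p = 0.0168). Ccna2, cyclin A2, was at 743 and 895 in M354 Tregs, against 417 and 606 in WT Tregs (log2 change 0.70, SE 0.17, adjusted p = 0.0450). Ube2c, which serves the anaphase-promoting complex, was at 542 and 505 in M354 Tregs, against 343 and 374 in WT Tregs (log2 change 0.55, SE 0.12, adjusted p = 0.0247). Stmn1, a microtubule-destabilising protein counted here with the replication genes, was at 687 and 1086 in M354 Tregs, against 418 and 516 in WT Tregs (log2 change 0.89, SE 0.18, adjusted p = 0.0146). None of these 5 calls held with each array left out in turn. Cks2 lost it without M354 replicate 1, M354 replicate 2 or WT replicate 1 (adjusted p = 0.0884, 0.0731 and 0.116), Cks1b without M354 replicate 2 or WT replicate 1 (adjusted p = 0.183 and 0.196), Ccna2 without M354 replicate 1, M354 replicate 2 or WT replicate 1 (adjusted p = 0.100, 0.237 and 0.376), Ube2c without M354 replicate 1, M354 replicate 2, WT replicate 1 or WT replicate 2 (adjusted p = 0.164, 0.0671, 0.187 and 0.0709) and Stmn1 without M354 replicate 2 or WT replicate 1 (adjusted p = 0.165 and 0.139). E2f1, Ccnb2 and Nusap1 just missed the threshold (log2 0.59, 0.58 and 0.80; adjusted p = 0.0556, 0.0533 and 0.0534). The 16 tested regulators of the G1 phase had 0 calls and a median of 0.07.

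Other lists had 0 calls in either direction in limma's test over all genes, where 986 of the 8918 genes had an unadjusted p under 0.05. They were the 17 cholesterol synthesis genes (median -0.08), 13 heat shock genes (-0.10), 18 survival and death genes (-0.07), 12 forkhead factors (-0.06), 54 ribosomal protein genes (0.00) and 36 singly named small nucleolar RNAs (-0.14). Plasma cell (3 tested), myeloid (7), neutrophil (4) and erythroid and platelet markers (5) also had 0 calls. The summed erythroid and platelet markers were 921.9 and 802.3 in M354 Tregs, against 754.9 and 653.9 in WT Tregs.

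The same mutant was measured in transduced conventional T cells, which share no array with the Tregs. Both comparisons came from the same fit and share its estimate of each gene's spread, so calls in both systems are not independent. There 119 of the 8918 genes were called between M354 and WT (1.33%). Of the Treg calls, 15 were also called in transduced cells, which is 9.32% of the 161 Treg calls and 12.6% of the 119 transduced calls, and 12 of the 15 had the same direction. Gpr83 was at 184 and 263 with M354, against 517 and 510.1 with WT Foxp3 (log2 -1.22 in transduced cells, adjusted p = 0.000243). Slc2a3 was at 1093 and 1213 with M354, against 2678 and 2636 with WT Foxp3 (log2 -1.21 in transduced cells, adjusted p = 5.11e-05), and Atp6v0d2 at 157 and 207 with M354, against 433 and 373 with WT Foxp3 (log2 -1.15 in transduced cells, adjusted p = 0.000319). The difference between the systems was not called for these 3 falls (adjusted p = 0.966, 0.971 and 0.871). Jun (-0.75), Fos (-0.74), Elovl6 (-0.62) and Zscan29 (-0.59) also fell in transduced cells, and Cks2 (0.67) and Stmn1 (0.84) also rose (adjusted p = 0.00735, 0.00735, 0.0311, 0.0482, 0.0322 and 0.0274). The 3 genes called with opposite signs rose in M354 Tregs and fell in transduced cells with M354. Bhlhe40 was at 622 and 563 with M354, against 964 and 1061 with WT Foxp3 (log2 -0.77 in transduced cells, adjusted p = 0.00934). Plod2, a collagen-modifying lysyl hydroxylase (log2 change 0.84 in Tregs and -1.08 in transduced cells), and Prelid2 (0.87 in Tregs and -1.15 in transduced cells) were picked out after their values were seen. Plod2 was under the array median on all 4 Treg arrays, at 46.6 and 55.4 in M354 against 30.8 and 26.2 in WT Tregs. Its Treg call was lost without M354 replicate 2 or WT replicate 2. That of Prelid2 was lost without M354 replicate 1, M354 replicate 2 or WT replicate 1. With 50 added to each intensity, neither was called in Tregs (adjusted p = 0.103 and 0.0538). The difference between the systems was called for all 3, at 1.83, 1.92 and 2.02 on the log2 scale (adjusted p = 0.000131, 0.000131 and 0.000325).

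The difference of the M354 effect between the systems, Tregs minus transduced cells, was tested directly. It was called for 96 genes (1.08% of those tested), and for 47 of the 161 genes called in Tregs, 34 of them higher and 13 lower in M354 Tregs. The change in Tregs is itself part of this difference. Choosing genes by their call in Tregs therefore favours a large difference, and the 47 are not independent evidence that the systems differ. For Cxcl10 the difference was 2.59 on the log2 scale (adjusted p = 5.58e-06), as its intensity in transduced cells was 75 and 99.6 with M354, against 131 and 123 with WT Foxp3. Ahr was at 228 and 292 with M354, against 316 and 281 with WT Foxp3 there, and the difference was 1.67 (adjusted p = 0.000325). Cd7 was at 1581 and 1459 with M354, against 1332 and 1231 with WT Foxp3, with a difference of -1.38 (adjusted p = 0.000676). Tsc22d3 differed by -1.08 (adjusted p = 0.00365). The systems differ in sex-linked RNA, culture and transduction as well as in cell type, and these cannot be told apart here.

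**Figure D5:**
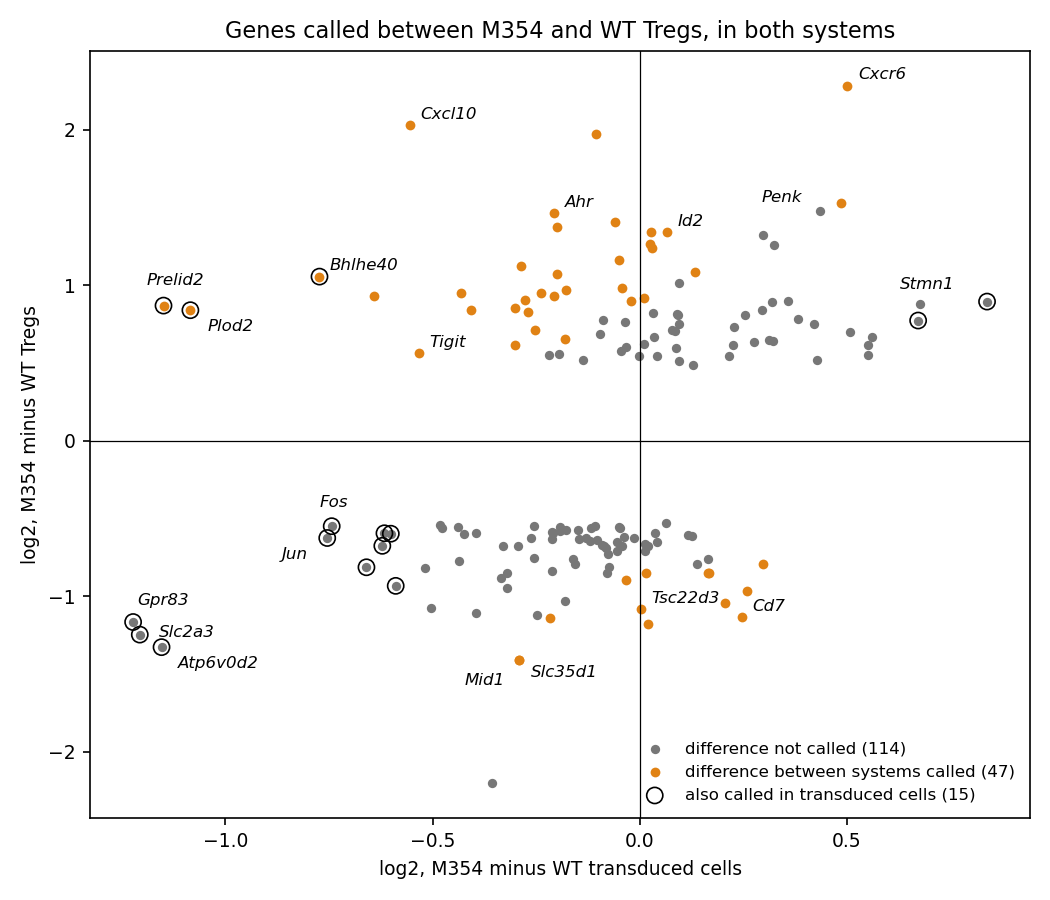
The 161 genes called between M354 and WT Tregs, with their log2 change in transduced cells on the horizontal and in Tregs on the vertical axis. Orange points are the 47 genes whose change differed between the systems, rings mark the 15 also called in transduced cells, and Gpr83, Slc2a3 and Atp6v0d2 lie low in both.

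For reference, the M176 Tregs share the WT arrays with this comparison, so only their values are given. Cxcr6 was at 70.1 and 74.6 in M176 Tregs, Cxcl10 at 272 and 249, Penk at 1025 and 892 and Ahr at 368 and 328, all below both M354 Treg arrays. M176 Tregs had Tnfsf8 at 700.3 and 636 and Id2 at 1168 and 943, between the M354 and WT values. Gpr83 was at 1566 and 1532 and Slc2a3 at 732 and 729.99, again between M354 and WT. Slc35d1, at 277 and 291 in M176 Tregs, lay nearer to M354 (258 and 253) than to WT Tregs (632 and 733). Cd7 was at 1484 and 1267 and Satb1 at 2876 and 3059, above both M354 Treg arrays.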

How the data were processed

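RNA of 12 samples was hybridised to Affymetrix ST1.0 arrays after amplification. The authors used Affymetrix Power Tools and RMA, per the submitters' processing notes. RMA corrects background, normalizes between arrays and merges each probe set's probes. The deposited values are linear intensity values, and 0 columns of the table lacked a sample. Array medians lay between 101.5 and 117.4, and 2 arrays a group limit the precision. The genome build used for the probe sets is not given in the sources used here.

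Of 20716 probe sets, 17703 named 1 gene, 1246 several and 1767 none in the supplied annotation. Entrez numbers of 17635 matched RefSeq (GRCm38.p6), and 0 symbols changed. This gave 16426 genes, 734 with several probe sets. Chromosomes 1, 10 and 11 had few named genes (29, 15 and 226), so lists are incomplete, and Ctla4, Il10 and Icos, for example, are not analysed here. Log2 intensities were fitted with limma 3.58.1 and statmod 1.5.0 in R 4.3.3, with 6 group means, 12 arrays, 6 residual degrees of freedom and a prior worth 10.9; p-values were adjusted by Benjamini-Hochberg over 8918 genes. The fit was tested on simulated data.

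Genes named are Foxp3, the 25 largest rises and falls among called genes without overlap between groups (predicted genes, clones and receptor segments left out), all called members of 43 lists and, of each list, up to 4 uncalled members with the smallest p, where unadjusted p was under 0.05. The members and lists were chosen with earlier results of these data known. Alternatives changed the filter, normalization, offset, probe set rule, arrays in the fit, variance model and replicate block. The labels share replicate numbers between groups without saying that they mark a pair. The deviations of same-numbered Treg arrays correlated at 0.08 between M354 and WT over genes, so the numbers were not used as pairs.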

Additional observations from a re-analysis of the deposited data

Results flagged for a closer look

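The effect of M354 differed between Tregs and transduced cells by a direct test in 35 of the named genes, beside 1.08% of all tested genes. These genes were named for their change in Tregs, which is part of the difference, so the choice favoured a large one. Each difference below is the log2 change in Tregs minus that in transduced cells, and its cause was not tested. Among the rises in M354 Tregs it was 2.59 for Cxcl10, 2.08 for Srsy, 1.83 for Bhlhe40, 1.78 for Cxcr6 and 1.67 for Ahr. Gpm6b and Ell2 each had 1.57, and Naip5 had 1.47. Casp4 had 1.41, Cysltr1 1.38, Sema6d 1.31, Id2 1.28 and Pdzk1ip1 1.27. Tnfsf8 had 1.24, and Tnfsf13b and Igfbp7 had 1.21 each. Clip3 had 1.19, Ebi3 1.15, Naip6 1.14, Tigit 1.10 and Gcnt1 1.02. Plscr1 had 0.951 and Itgb1 0.922.

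Among the falls the difference was -1.38 for Cd7, -1.25 for Ifitm3, -1.22 for Sidt1 and -1.20 for Slc28a2b. Slc35d1 and Mid1 each had -1.12, and Tsc22d3 had -1.08. Cd72 and Cnr2 had -1.02 each, H2-Ob -0.926, Cnn3 -0.867 and Satb1 -0.865. Bhlhe40 was called in both systems with opposite signs, as were Plod2 and Prelid2.

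Probe sets outside the main measurement carried a signal as well. Of 771 tested that name several genes, 82 were called higher and 5 lower in M354 than in WT Tregs. Of 897 that name no gene, 37 were called higher and 8 lower. In the same fit, 87 were higher and 88 lower of 9729 that name 1 gene. Probe sets of near-identical copies, such as the 21 that name Ssty1, are not separate signals. Genes that did not pass the filter, 7508 in number, had a median log2 change of 0.055, beside -0.04 for the tested genes.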

How the results depend on the processing

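Across 14 other ways of processing 35 of the 161 calls held in every one. The 79 genes called higher became 147 under quantile and 141 under cyclic loess normalization, and between 38 and 72 with an array left out. The 82 called lower became 130 under quantile normalization and between 29 and 57 with an array left out. The share of calls that were higher was 63.8% under cyclic loess, beside 49.1%. A gene that an alternative did not test was not counted among the 35 calls that held. Cnr2, Igfbp7, Tnfsf13b and Sema6d, for example, were not tested with the filter at percentile 75. The 96 genes whose effect differed between systems became 54 with the filter at percentile 75 and between 58 and 83 with an array left out. With the Snord116 covariate, added after the values were seen, 13 were higher and 40 lower; the cause was not tested. Foxp3 changed sign, at a log2 change of -0.0177, under quantile normalization (adjusted p = 0.978), and ranged from -0.0446 to 0.106 with an array left out, including -0.0331 without M354 replicate 1. Without WT replicate 2, 3 uncalled genes changed sign: Scd1 to 0.158, Dnajb4 to 0.0377 and Ms4a1 to 0.0834; with each array left out they ranged from -2.18, -1.12 and -2.40 up to these values. For single named genes, 110 refits ended a call and 93 made one. With a replicate block 134 genes were called, 66 higher and 68 lower; the numbers are shared, not stated to pair arrays, and the block changed no count by over 1.5 times. Of the 161 genes, 128 lay above the array median on all 4 arrays and 5 on none, where intensities near background limit precision.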

Other observations

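Genes named here were picked after their values were seen. The rises included the protein phosphatase Ptpn13, at 516 and 498 in M354 Tregs, against 285 and 286 in WT Tregs (log2 0.83, adjusted p = 0.00140), the growth factor Fgf2, at 217 and 199 in M354 Tregs, against 104 and 116 in WT Tregs (log2 0.92, adjusted p = 0.000900), and the transporter Slc43a3, at 857 and 838 in M354 Tregs, against 464 and 483 in WT Tregs (log2 0.84, adjusted p = 0.00374). Each kept its call without any single array, and none kept it with the Snord116 level as a covariate (adjusted p = 0.084, 0.0906 and 0.132). Casp1, the caspase of inflammasomes, was at 159 and 215 in M354 Tregs, against 99.1 and 99.5 in WT Tregs (log2 0.90, adjusted p = 0.00393), a call lost without M354 replicate 2 (adjusted p = 0.0731). Cd86, a co-stimulatory ligand, was at 497 and 491 in M354 Tregs, against 293 and 336 in WT Tregs (log2 0.66, adjusted p = 0.0144), a call lost without M354 replicate 1, M354 replicate 2 or WT replicate 1 (adjusted p = 0.107, 0.0731 and 0.151).

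The H2-O chains moved apart: H2-Oa was at 519 and 545 in M354 Tregs, against 332 and 355 in WT Tregs (log2 0.63, adjusted p = 0.0216), a call lost without M354 replicate 1, M354 replicate 2, WT replicate 1 or WT replicate 2 (adjusted p = 0.104, 0.118, 0.146 and 0.0692), whereas H2-Ob fell. Among the falls, the Tec-family kinase Txk was at 609 and 569 in M354 Tregs, against 1037 and 1065 in WT Tregs (log2 -0.84, adjusted p = 0.00131) and Card6 at 592 and 551 in M354 Tregs, against 994 and 1013 in WT Tregs (log2 -0.81, adjusted p = 0.00233), and both held with any array left out. Zfp36l2, which destabilises messenger RNAs, was at 2847 and 2841 in M354 Tregs, against 4647 and 4291 in WT Tregs (log2 -0.65, adjusted p = 0.0207), a call lost without M354 replicate 1, M354 replicate 2, WT replicate 1 or WT replicate 2 (adjusted p = 0.122, 0.0916, 0.146 and 0.0612). The toll-like receptor gene Tlr7 was at 302 and 347 in M354 Tregs, against 479 and 638 in WT Tregs (log2 -0.77, adjusted p = 0.0247), a call lost without M354 replicate 1, M354 replicate 2 or WT replicate 2 (adjusted p = 0.221, 0.0698 and 0.281).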
